A study of Mus musculus with 15 samples.

Results

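The genes for the enzymes and receptors of the prostanoids, the prostaglandins and thromboxane, were compared between aortas of male mice given aldosterone and salt (Aldo-salt) with and without gonadal androgen. The set was fixed by gene symbol as 10 genes: *Ptgs1*, *Ptgs2*, *Ptgis*, *Ptges*, *Ptgds* and *Tbxas1* for synthesis, and *Ptgir*, *Tbxa2r*, *Ptger3* and *Ptger4* for receptors. All 10 were among the 24982 gene symbols counted, and all 10 passed the filter on low counts that left 14121 genes for testing. The 15 libraries each came from 1 whole aorta, 5 per group, of WT C57BL/6 males aged 10 months. The control mice had a sham operation, a second group was orchiectomized, and the remaining group was orchiectomized and carried a pellet of dihydrotestosterone (DHT), an androgen that is not turned into estrogen. After 2 weeks of recovery, every mouse, controls included, received aldosterone from a minipump at 200 µg/kg per day and drank water with 0.9% NaCl and 0.2% KCl until tissue was taken on day 7. There was no group without Aldo-salt, so the comparisons address androgen under Aldo-salt and say nothing of Aldo-salt itself. The aortas were cleaned in RNAlater and poly(A) RNA of the whole wall, with whatever tissue stayed attached, was sequenced.

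Prostanoids are short-lived lipid signals. Cyclooxygenases turn arachidonic acid into an unstable endoperoxide, and terminal synthases turn that into prostacyclin, thromboxane or prostaglandins D, E and F, each of which acts on its own G protein-coupled receptors. In arteries, prostacyclin relaxes smooth muscle and restrains platelets, whereas thromboxane contracts smooth muscle and activates platelets. Transcript levels do not measure the enzymes' activity or the lipids, which were not analysed here.

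*Ptgs1*, *Tbxas1*, *Ptgir* and *Ptger4* passed the test between orchiectomized mice with and without DHT, all lower with DHT. For that reason the sequences just before their transcription starts are given first. They are 250 bases each, from RefSeq on GRCm38.p6 (mm10), read 5′ to 3′ on the gene's own strand. Capitals mark a match to a motif that was searched on both strands: in *Ptgs1* AGAACA, a motif of the androgen and mineralocorticoid receptors, seen here on the opposite strand as TGTTCT, in *Tbxas1* the TATA box TATAAA on both strands with the matches overlapping, and in *Ptger4* the CCAAT box.
Ptgs1: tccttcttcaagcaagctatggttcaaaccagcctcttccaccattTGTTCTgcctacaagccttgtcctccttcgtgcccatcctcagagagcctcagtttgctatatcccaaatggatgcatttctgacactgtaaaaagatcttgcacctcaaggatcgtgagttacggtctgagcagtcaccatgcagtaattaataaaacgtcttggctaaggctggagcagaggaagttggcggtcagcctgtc
Tbxas1: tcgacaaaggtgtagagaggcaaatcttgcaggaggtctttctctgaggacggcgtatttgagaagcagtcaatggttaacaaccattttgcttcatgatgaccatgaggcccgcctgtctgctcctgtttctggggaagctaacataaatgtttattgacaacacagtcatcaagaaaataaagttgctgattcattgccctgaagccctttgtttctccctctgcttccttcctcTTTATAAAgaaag
Ptgir: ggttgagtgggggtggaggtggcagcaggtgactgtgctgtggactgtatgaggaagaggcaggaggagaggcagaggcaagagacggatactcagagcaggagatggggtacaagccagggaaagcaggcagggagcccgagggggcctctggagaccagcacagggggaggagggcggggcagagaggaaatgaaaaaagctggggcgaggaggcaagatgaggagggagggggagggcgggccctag
Ptger4: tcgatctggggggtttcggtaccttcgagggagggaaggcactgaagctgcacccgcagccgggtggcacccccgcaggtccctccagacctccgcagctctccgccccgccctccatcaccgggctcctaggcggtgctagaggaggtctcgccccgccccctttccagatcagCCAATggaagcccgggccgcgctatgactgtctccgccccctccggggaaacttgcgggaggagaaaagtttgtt
These windows lie at chr2:36230176-36230425 (+), chr6:38918736-38918985 (+), chr7:16906240-16906489 (+) and chr15:5244188-5244437 (-), in that order. In GENCODE vM21 the windows of *Ptgs1*, *Ptgir* and *Ptger4* touch no annotated gene and end where the gene begins. The window of *Tbxas1* lies inside the gene, which GENCODE starts further upstream at position 38875404, shares its last 6 bases with an exon of another *Tbxas1* transcript and shares 140 bases with an exon of *Gm42962* on the opposite strand.

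The motif search covered 32851 RefSeq windows of 300 bases, of which 50 lie after the start. AGAACA was found in 19.0% of all windows and, among the members, in *Ptgs1*, where it ends 199 bases before the start, and in *Ptges*. The full inverted repeat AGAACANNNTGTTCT was found in 0.00913% of all windows and in no member. TATAAA was found in 13.6% of all windows and among the members in *Tbxas1*, 11 bases before the start. CCAAT was found in 37.4% of all windows and in *Ptger4* and *Tbxa2r*, and TGACG, a core of the cAMP response element, in 20.8% and in *Ptgs2* and *Tbxa2r*. The E-box CACGTG was found in 7.15% of all windows and in *Ptgs2*. *Ptgis* had no window in the table. *Ptgir* held none of these motifs, so no motif searched was shared by all 4 members called. A match is only a string of letters, and its absence says nothing of the factor. The upstream GC content was 48.0% in *Ptgs1*, 43.6% in *Tbxas1*, 63.6% in *Ptgir* and 66.8% in *Ptger4*, against a median of 52.4% over all windows.

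The libraries held 8268957 to 13816864 reads on genes (median 10930079), and 10 counts in a library of median size equal 0.904 CPM, the TMM-scaled unit of all levels given here. The biological coefficient of variation was 0.297 across mice treated alike. Orchiectomized replicate 2 stood apart from its group: its mean correlation with the other libraries of the group was 0.9009, against 0.9483 to 0.9734 for the other 14 libraries with theirs. It also held the highest summed level of mesothelial markers (861 CPM, against 79.2 CPM in the lowest orchiectomized library) and of neutrophil markers (1170 CPM, against 26.6 CPM). The tissue label was borne out by smooth muscle genes such as *Myh11* (mean 4790 CPM in control mice) and *Acta2* (5550 CPM), endothelial *Pecam1* (327 CPM) and *Cdh5* (133 CPM), and fibroblast *Pdgfra* (94.5 CPM) and *Dpt* (263 CPM). White and brown fat genes were high as well, with *Adipoq* (white fat) at 380 CPM and *Ucp1* (brown fat) at 1800 CPM in control mice.

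The control aortas expressed the 10 genes at very different levels per kilobase of exon. *Ptgis*, prostacyclin synthase, stood far above the others, at 303 ± 61.4 CPM per kilobase (mean ± SD, n = 5), and its lowest library (243) lay above every library of every other member. *Tbxa2r*, the thromboxane receptor, followed at 20.4 ± 4.06, then *Ptger3* at 10.8 ± 3.11 and *Ptgs1* at 9.05 ± 1.07 CPM per kilobase. The ranges of neighbors in that order overlapped, *Tbxa2r* at 13.9 to 24.2, *Ptger3* at 6.98 to 14.6 and *Ptgs1* at 7.76 to 10.2. *Ptges* (3.74 to 6.82) lay below *Ptgs1* without overlap, but *Ptgs2*, next in the order, ran from 2.29 to 9.07 and overlapped *Ptgs1*. From *Ptges* down to *Ptgs2*, *Ptger4*, *Ptgir*, *Ptgds* and *Tbxas1*, means ran from 4.72 to 1.5 CPM per kilobase and each neighbor overlapped the next. *Ptgis* and *Tbxa2r* were also first and second in both orchiectomized groups, while the lowest was *Ptgds* (1.45 ± 0.887) without DHT and *Tbxas1* (0.907 ± 0.384) with it. The length used was the union of exons of all basic GENCODE transcripts of a gene.

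**Figure D1:**
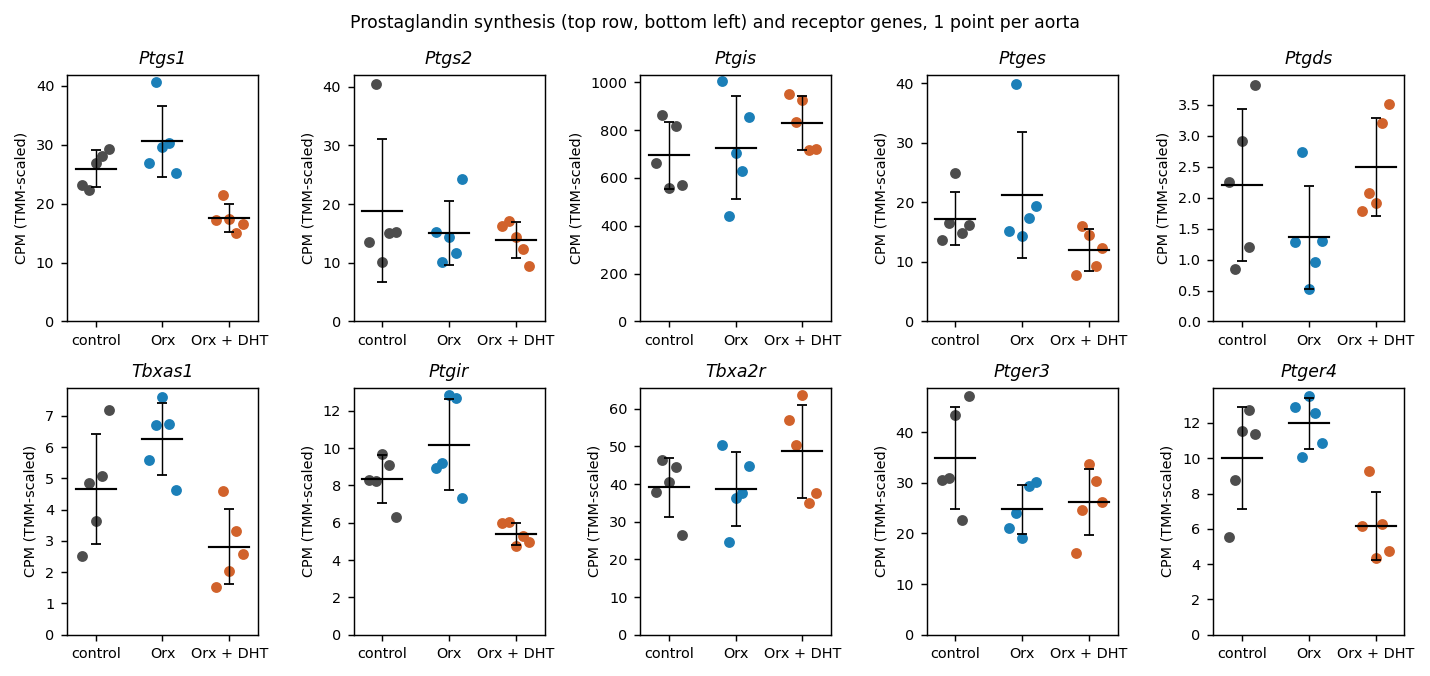
CPM (TMM-scaled, linear axes from 0) of the 10 genes in each of 15 aortas, 1 point per aorta, with the mean and SD of each group of 5; Orx stands for orchiectomized. For Ptgs1, Tbxas1, Ptgir and Ptger4 all 5 DHT-treated aortas sit below all 5 untreated orchiectomized aortas, and for the other 6 genes those groups overlap.

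The first comparison asked whether orchiectomy moved these genes under Aldo-salt. A gene was called at an unadjusted P value under 0.01 of edgeR's quasi-likelihood test, the threshold of the study. None of the 10 members was called, where 3.22% of the 14121 genes tested were called, 2.08% as higher and 1.13% as lower. With edgeR 1 member had an unadjusted P value under 0.05, as had 1692 of the 14121 genes tested, and DESeq2 also called 0 members. The member was *Ptger3*, the EP3 receptor of prostaglandin E, which lowers cyclic AMP. Its level was 30.6, 31.0, 43.3, 22.6 and 47.2 CPM in the control mice (replicates 1 to 5) and 21.1, 24.1, 19.2, 29.3 and 30.1 CPM in the orchiectomized mice. The groups overlapped, since control replicate 4 lay within the orchiectomized range. The log2 fold change was -0.50 (SE 0.218, edgeR P = 0.0382, adjusted P = 0.398, exact permutation P = 0.079). The adjusted value covers all genes tested, and the exact two-sided permutation test was run on the log2 CPM of that gene alone. Without control replicate 4 *Ptger3* was called (edgeR adjusted P = 0.19), and in no other leave-one-out fit was any member called. The log2 fold changes of the other 9 members lay between -0.69 (*Ptgds*) and 0.42 (*Tbxas1*) with unadjusted P values of at least 0.105 (*Ptgs1*). The median over the 10 members was 0.15, against 0.037 over all genes tested. The 95% interval of the log2 fold change ran from -0.0554 to 0.525 for *Ptgs1* and, on far fewer counts, from -1.65 to 0.27 for *Ptgds*.

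The second comparison asked what DHT changed in orchiectomized mice. *Ptgs1*, *Tbxas1*, *Ptgir* and *Ptger4* were lower with DHT, and 0 members were called higher. Of all genes tested 7.27% were called lower and 2.46% higher. All 4 also had an adjusted P value under 0.05, a rule that 3.8% of all genes met as lower, and in all 4 the DHT-treated libraries lay below every untreated one, which held for 4.34% of all genes. With edgeR 5 members had an unadjusted P value under 0.05, the further one being *Ptges*, as had 2994 of the 14121 genes tested. The median log2 fold change was -0.461 over the members and -0.0224 over all genes. Without orchiectomized replicate 2 all 4 were called as well, at -0.66 (*Ptgs1*), -1.10 (*Tbxas1*), -0.94 (*Ptgir*) and -0.99 (*Ptger4*). Some markers of endothelium, fibroblasts and leukocytes and 9 of 9 mesothelial markers were also called lower with DHT, as given with the marker lists. In whole tissue, fewer cells of a type and less RNA per cell cannot be told apart, for these and all later values.

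*Ptgs1* encodes cyclooxygenase-1, the constitutive enzyme that commits arachidonic acid to prostanoids. It measured 27.0, 40.6, 29.7, 30.3 and 25.3 CPM in the orchiectomized mice and 17.2, 21.4, 17.4, 15.03 and 16.6 CPM with DHT. The lowest untreated aorta thus lay above the highest treated one. The level was 1.74-fold lower with DHT (log2 fold change -0.80, SE 0.138, edgeR P = 3.49e-05, adjusted P = 0.00895, exact permutation P = 0.0079). This permutation value is the smallest that 5 against 5 mice can give. Orchiectomized replicate 2 held the highest value. The adjusted P value stayed under 0.05 in all 21 alternative settings, the highest being 0.0395. *Ptgs1* spans chr2:36230426-36252272 (+), and 5.16% of its exon bases also belong to *Gm43621* on the opposite strand. Whether the counting used strand is not given in the sources used here.

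*Ptgs2*, the inducible cyclooxygenase-2 of inflammation, gave no such difference. Its level was 15.3, 10.1, 14.3, 11.7 and 24.2 CPM without DHT and 16.2, 17.2, 14.3, 12.3 and 9.39 CPM with it, so the groups lay on top of each other. The log2 fold change was -0.12 with a 95% interval from -0.843 to 0.602 (edgeR P = 0.727, exact permutation P = 0.75). This interval is wide enough to hold a fall of the size seen in *Ptgs1*, so the genes were not shown to differ in response. Within each aorta, the log2 ratio of *Ptgs2* to *Ptgs1* averaged -1.04 ± 0.70 in orchiectomized mice and -0.345 ± 0.27 with DHT (SD, n = 5), with overlapping groups.

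Among the terminal synthases, *Tbxas1* encodes thromboxane A synthase, known from platelets and macrophages. It was a low transcript, at 5.59, 6.71, 7.59, 6.72 and 4.63 CPM without DHT and 1.54, 4.59, 2.05, 3.33 and 2.58 CPM with DHT. Those values rest on 52 to 98 counts and 16 to 51 counts, and the groups were separated by a narrow margin between 4.59 and 4.63 CPM. The level was 2.21-fold lower (log2 fold change -1.15, SE 0.311, edgeR P = 0.00218, adjusted P = 0.0475, exact permutation P = 0.0079). The unadjusted call held in all 21 alternative settings, but the adjusted value was under 0.05 in only 6 of them, and was 0.13 without DHT replicate 3. Of 10 macrophage markers, *Adgre1* and *Csf1r* (the latter named after its values were seen) were called lower and *Cd68* was not (without orchiectomized replicate 2, *Adgre1* alone), and the summed list ran from 575 to 803 CPM without and from 380 to 630 CPM with DHT. Of 5 platelet and megakaryocyte markers tested, among them *Pf4* and *Itga2b*, 0 were called, at 39.3 to 63.0 CPM and 33.5 to 60.2 CPM summed. The part of either cell type in the *Tbxas1* result was not tested. The gene spans chr6:38875404-39084585 (+), and 4.64% of its exon bases also belong to *Gm42962* on the opposite strand.

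*Ptgis*, which makes prostacyclin, was not called. It lay at 1004, 441, 704, 628 and 854 CPM without DHT and at 953, 836, 924, 715 and 719 CPM with DHT. The treated aortas all fell within the range of the untreated ones. Its log2 fold change was 0.19, with a 95% interval from -0.231 to 0.615 (edgeR P = 0.35, exact permutation P = 0.34). *Ptges*, the inducible prostaglandin E synthase, measured 15.2, 39.8, 14.4, 17.4 and 19.4 CPM without DHT and 7.77, 16.1, 14.6, 9.24 and 12.3 CPM with it. Its log2 fold change of -0.82 (SE 0.287, edgeR P = 0.0118, adjusted P = 0.11, exact permutation P = 0.04) did not pass, but it was called by DESeq2 (adjusted P = 0.0696). Orchiectomized replicate 2 weighed heavily on it: without that library the log2 fold change was -0.46 (edgeR adjusted P = 0.253).

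*Ptgds*, the lipocalin-type prostaglandin D synthase, was counted 6 to 31 times per library without DHT and 15 to 34 times with it. It measured 1.29, 2.74, 0.523, 0.960 and 1.30 CPM against 1.79, 2.07, 1.92, 3.202 and 3.51 CPM, and only orchiectomized replicate 2 overlapped the treated range. The log2 fold change was 0.87 (SE 0.452, edgeR P = 0.0733, exact permutation P = 0.048). Without orchiectomized replicate 2 it was 1.30 and was called higher (edgeR adjusted P = 0.115), so that this library decided the call. Within each aorta the log2 ratio of *Ptgis* to *Tbxas1* averaged 6.71 ± 0.64 without and 8.03 ± 0.64 with DHT (SD, n = 5), a difference of 1.32, and 4 of 5 treated aortas lay above all untreated ones.

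**Figure D2:**
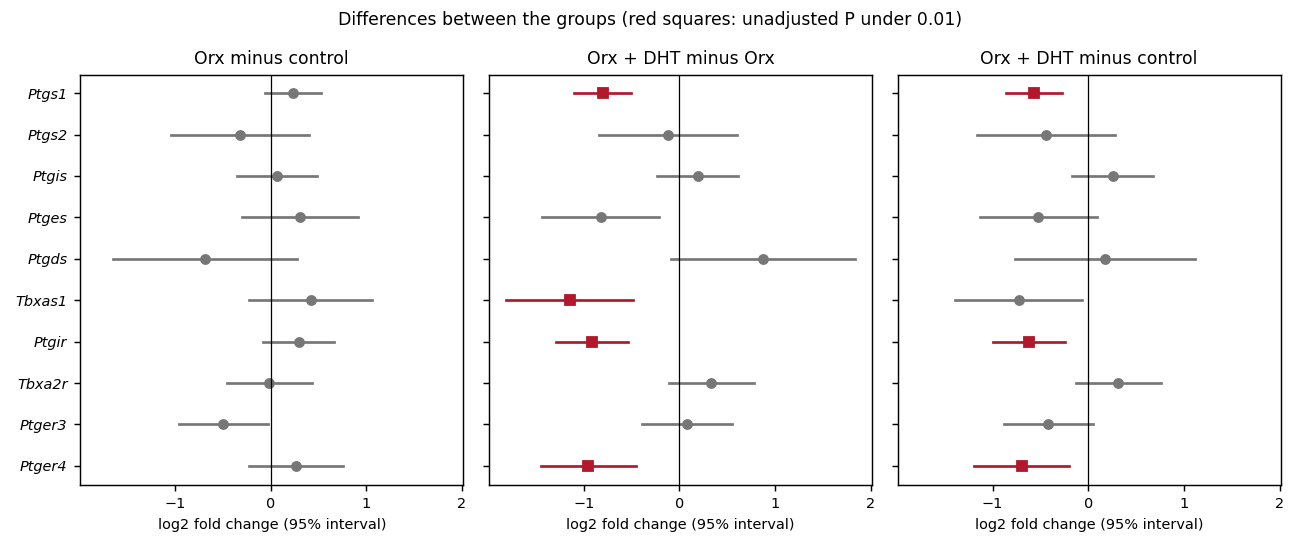
log2 fold changes of the 10 genes from edgeR with their 95% intervals in the 3 comparisons, with red squares where the unadjusted P value was under 0.01; Orx stands for orchiectomized. No gene is marked for orchiectomy against control, 4 are marked for DHT against orchiectomy (-0.80 to -1.15) and 3 for DHT against control (-0.57 to -0.69), all below 0.

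Of the receptors, *Ptgir* and *Ptger4* fell with DHT, both of which couple to the G protein that raises cyclic AMP. *Ptgir*, the prostacyclin receptor, measured 8.92, 9.18, 12.8, 12.7 and 7.31 CPM in orchiectomized mice and 5.97, 6.02, 4.73, 5.30 and 4.95 CPM with DHT. The treated values were tightly grouped and all lay below the lowest untreated aorta. The level was 1.88-fold lower (log2 fold change -0.91, SE 0.178, edgeR P = 0.00012, adjusted P = 0.0153, exact permutation P = 0.0079). In 19 of 21 alternative settings the adjusted P value stayed under 0.05, and the highest was 0.0552, with only the 2 groups in the fit. The gene spans chr7:16906490-16910905 (+).

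*Ptger4*, the EP4 receptor of prostaglandin E, stood at 12.9, 10.1, 13.5, 12.6 and 10.9 CPM without DHT and 6.14, 9.26, 4.35, 6.28 and 4.75 CPM with DHT. DHT replicate 2 came nearest to the untreated range and the groups did not overlap. The level was 1.94-fold lower (log2 fold change -0.96, SE 0.234, edgeR P = 0.000976, adjusted P = 0.0329, exact permutation P = 0.0079). The adjusted value was under 0.05 in 13 of 21 alternative settings and was 0.0933 without DHT replicate 3. The gene spans chr15:5206661-5244187 (-). *Ptger4* is also made by leukocytes, and 7 of 7 tested T cell markers such as *Cd3e* were called lower with DHT, 6 of 7 without orchiectomized replicate 2, the summed list running from 9.88 to 74.1 CPM without and from 5.38 to 8.62 CPM with DHT. Their part in the *Ptger4* result was not tested.

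*Tbxa2r*, the thromboxane receptor of smooth muscle and platelets, measured 50.4, 24.6, 36.3, 37.7 and 44.8 CPM without DHT and 57.0, 50.3, 63.6, 35.0 and 37.6 CPM with it. The groups overlapped. Its log2 fold change was 0.33, with a 95% interval from -0.113 to 0.774 (edgeR P = 0.133, exact permutation P = 0.23). Within each aorta the log2 ratio of *Ptgir* to *Tbxa2r* was -2.43, -1.37, -1.47, -1.53 and -2.54 in orchiectomized mice and -3.15, -2.96, -3.61, -2.61 and -2.80 with DHT. All 5 treated aortas lay below the untreated ones, by a narrow margin between -2.61 and -2.54. The mean ratio of prostacyclin to thromboxane receptor transcript fell by 1.16 on the log2 scale. *Ptgir* was called by itself and *Tbxa2r* was not, and the share of other gene pairs that separate in this way was not counted. *Ptger3* did not pass, with a log2 fold change of 0.08 and a 95% interval from -0.388 to 0.545 (edgeR P = 0.726, exact permutation P = 0.78).

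**Figure D3:**
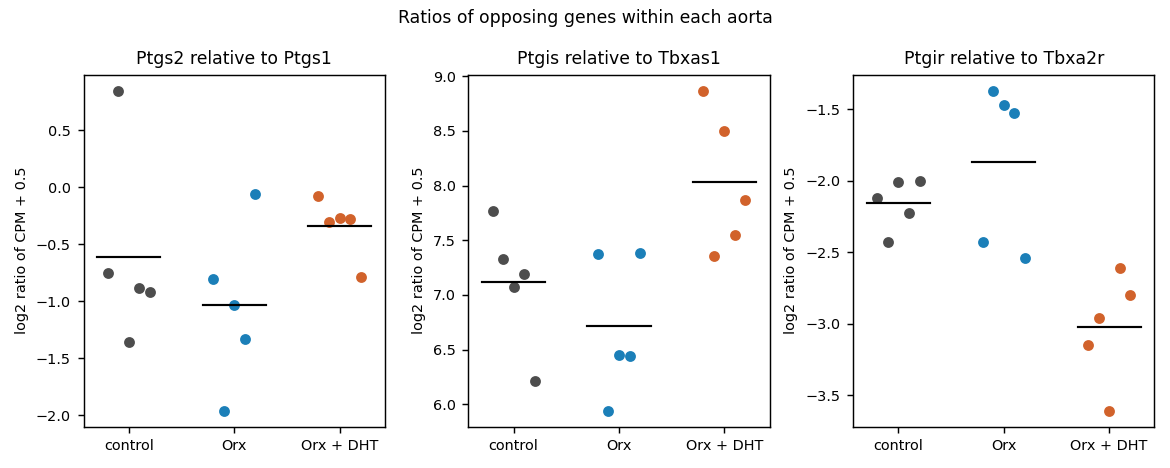
log2 ratios of CPM (pseudocount 0.5) of Ptgs2 to Ptgs1, Ptgis to Tbxas1 and Ptgir to Tbxa2r within each of 15 aortas, 1 point per aorta, with a line at the mean of each group; Orx stands for orchiectomized. The Ptgir to Tbxa2r ratio of all 5 DHT-treated aortas (-3.61 to -2.61) lies below both other groups (-2.54 to -1.37 and -2.43 to -2.00).

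The third comparison set orchiectomized mice with DHT against the sham-operated controls. It shares the treated libraries with the second comparison and the control libraries with the first. *Ptgs1*, *Ptgir* and *Ptger4* were called lower with DHT than in control mice, 3 of 10 members, where 2.01% of all genes were called lower and 3.53% in either direction. No member had an adjusted P value under 0.05, which 0.149% of all genes had as lower. With edgeR 4 members had an unadjusted P value under 0.05, as had 1671 of the 14121 genes tested, and DESeq2 called 3 members. *Ptgs1* and *Ptgir* did not overlap between the groups, and 1.79% of all genes lay wholly lower. Without control replicate 4 only *Ptgs1* was called. The median log2 fold change was -0.481 over the members and -0.00292 over all genes.

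*Ptgs1* measured 23.2, 22.2, 27.0, 28.1 and 29.2 CPM in the control mice, all above the highest DHT-treated value of 21.4 CPM. The level was 1.48-fold lower with DHT (log2 fold change -0.57, SE 0.138, edgeR P = 0.000942, adjusted P = 0.112, exact permutation P = 0.0079), and adjusted P values ran from 0.0148 with DESeq2 to 0.317 without control replicate 5 over the alternatives, with 0.0401 without orchiectomized replicate 2. *Ptgir* measured 8.31, 8.22, 9.68, 9.12 and 6.28 CPM in control mice, and control replicate 5 came close to the highest treated value of 6.02 CPM. The log2 fold change was -0.62 (SE 0.178, edgeR P = 0.00323, adjusted P = 0.194, exact permutation P = 0.0079). The call was lost without control replicate 4 (edgeR adjusted P = 0.314) and without DHT replicate 5 (adjusted P = 0.453).

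*Ptger4* measured 5.51, 8.79, 11.6, 12.7 and 11.4 CPM in control mice, and control replicates 1 and 2 lay within the treated range. Its log2 fold change of -0.69 (SE 0.234, edgeR P = 0.00957, adjusted P = 0.279, exact permutation P = 0.056) lay close to the threshold, and the call held in 6 of 21 alternative settings. It was among the calls lost without orchiectomized replicate 2 (edgeR adjusted P = 0.213). *Tbxas1* measured 2.53, 4.86, 3.64, 5.09 and 7.20 CPM in control mice and did not pass (log2 fold change -0.73, edgeR P = 0.0337, exact permutation P = 0.079). Without DHT replicate 2 it was called (log2 fold change -0.98). In all 4 genes the control mean lay between the other groups: 26.0 CPM for *Ptgs1*, 8.32 for *Ptgir*, 4.66 for *Tbxas1* and 9.99 for *Ptger4*, against 30.6, 10.2, 6.25 and 12.0 CPM after orchiectomy and 17.5, 5.40, 2.81 and 6.16 CPM with DHT. The steps from control to orchiectomized mice were not called. These 4 genes were picked for lying lower with DHT than after orchiectomy, which favors a control mean in between. The share of all genes with that order was not counted. The *Ptgir* to *Tbxa2r* ratio averaged -2.16 ± 0.18 in control mice (SD, n = 5), all 5 DHT-treated aortas again lay below, and the mean fell by 0.872 on the log2 scale.

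The other 6 members did not pass against control, with log2 fold changes from -0.52 (*Ptges*) to 0.31 (*Tbxa2r*) and unadjusted P values of at least 0.0756 (*Ptger3*). Their control levels were 694 ± 140 CPM for *Ptgis*, 39.2 ± 7.80 for *Tbxa2r*, 35.0 ± 10.1 for *Ptger3*, 18.9 ± 12.2 for *Ptgs2*, 17.2 ± 4.43 for *Ptges* and 2.21 ± 1.22 CPM for *Ptgds* (SD, n = 5). With DHT the levels were 829 ± 111, 48.7 ± 12.3, 26.2 ± 6.60, 13.9 ± 3.13, 12.0 ± 3.50 and 2.50 ± 0.796 CPM in the same order, and all 6 overlapped between the groups.

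The genes that are not members but belong to the wider eicosanoid pathway numbered 56, of which 41 passed the filter. After orchiectomy 3 of them were called higher and 0 lower, 7.32% against 3.22% of all genes. With DHT in orchiectomized mice 1 was called higher and 7 lower, 19.5% against 9.72% of all genes. Without orchiectomized replicate 2 the 7 lower genes became 3, *Slco2a1*, *Hpgd* and *Ptgfrn*, and the 3 higher genes after orchiectomy became 1, *Ephx1*. For DHT against control 0 of the 41 were called higher and 1 lower, 2.44% against 3.53% of all genes. The median log2 fold changes of the 41 genes were 0.172 after orchiectomy, -0.242 with DHT against orchiectomy and -0.0943 with DHT against control.

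The genes for release of arachidonate gave 0 calls among 9 tested. The smallest P values were those of *Pla2g5*, a secreted phospholipase (log2 fold change -1.45 with DHT against orchiectomy, edgeR adjusted P = 0.142), and of *Mgll*, monoacylglycerol lipase (-0.72 after orchiectomy, adjusted P = 0.357). The other prostaglandin synthases, 7 tested, also gave 0 calls, with *Gstm2* (0.39, DHT against control, edgeR adjusted P = 0.379) and *Cbr1* (0.37 after orchiectomy, adjusted P = 0.472) nearest to the threshold. Counts for both lists were also 0 without orchiectomized replicate 2.

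Breakdown and transport held 3 of the calls for DHT against orchiectomy among 7 genes. *Slco2a1*, the prostaglandin transporter that carries prostaglandins into cells, fell with DHT from 47.8 ± 19.3 to 21.3 ± 3.52 CPM (SD, n = 5). The log2 fold change was -1.16 (SE 0.22, edgeR adjusted P = 0.0129), and -0.86 without orchiectomized replicate 2. It was also called lower than in control mice (-0.73, edgeR adjusted P = 0.218). *Hpgd*, the dehydrogenase that inactivates prostaglandins, ranged from 13.5 to 123 CPM without and from 4.56 to 12.5 CPM with DHT. Its log2 fold change was -2.22 (SE 0.58, edgeR adjusted P = 0.0415), and -1.04 (edgeR adjusted P = 0.0675, still called) without orchiectomized replicate 2. *Slc22a2*, an organic cation transporter, was higher with DHT (1.11, SE 0.23, edgeR adjusted P = 0.0173). Against control it was not called (0.64, edgeR adjusted P = 0.296), but it was called without orchiectomized replicate 2 (adjusted P = 0.144). *Ptgr1*, a prostaglandin reductase, was called higher after orchiectomy (0.60, edgeR adjusted P = 0.287), but not without orchiectomized replicate 2 (adjusted P = 0.613).

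Of the other receptors, 4 were tested. *Ptgfrn*, which binds and restrains the prostaglandin F receptor, fell with DHT (-0.85, SE 0.18, edgeR adjusted P = 0.02) from 149 ± 40.3 to 82.7 ± 14.7 CPM. *Ptger2*, the EP2 receptor of prostaglandin E, was called higher after orchiectomy (1.77, edgeR adjusted P = 0.285) on 6 to 68 counts per orchiectomized library, but not without orchiectomized replicate 2 (1.01, adjusted P = 0.647). Of 8 lipoxygenase and leukotriene genes tested, *Alox5* (-1.13), *Alox5ap* (-0.98), *Alox15* (-3.50) and *Ltb4r1* (-1.60) were called lower with DHT, with edgeR adjusted P values of 0.0858, 0.06, 0.0495 and 0.0638. These genes make or sense leukotrienes and related lipids of leukocytes. Without orchiectomized replicate 2 the list gave 0 calls for DHT against orchiectomy, at log2 fold changes of -0.92 (*Alox5*), -0.68 (*Alox5ap*), -2.53 (*Alox15*) and -1.11 (*Ltb4r1*) and with edgeR adjusted P values from 0.123 (*Alox15*) to 0.174 (*Alox5*). Of 6 epoxygenase genes *Ephx1*, an epoxide hydrolase, was called higher after orchiectomy (0.38, edgeR adjusted P = 0.28), and the other 5 gave no call.

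**Figure D4:**
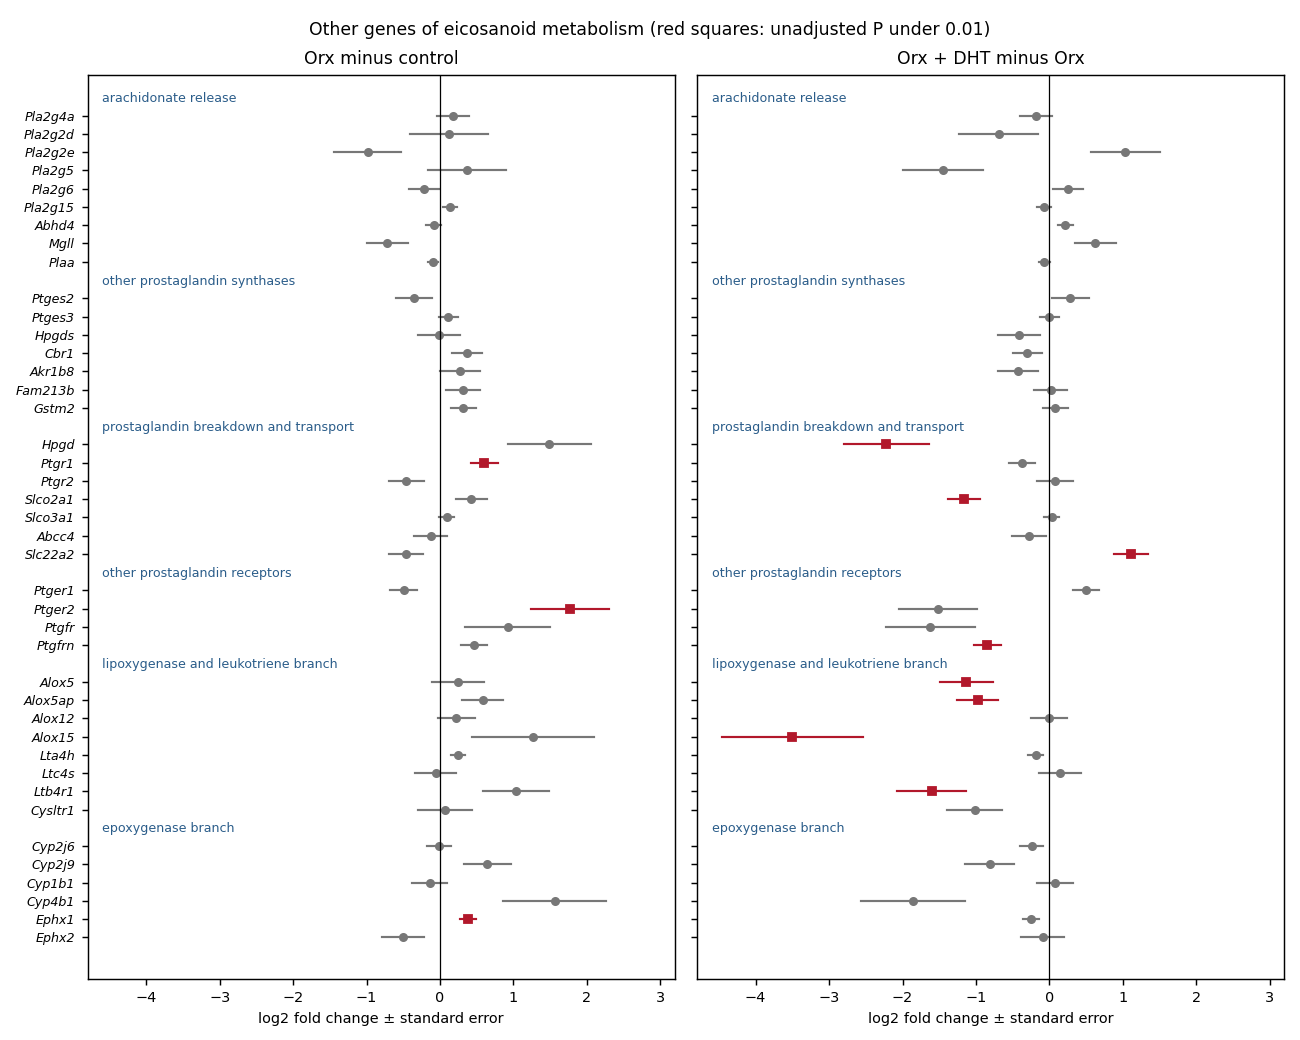
log2 fold changes with standard errors from edgeR of the 41 tested genes of eicosanoid metabolism outside the 10 members, by list, for orchiectomy against control and DHT against orchiectomy, with red squares where the unadjusted P value was under 0.01; Orx stands for orchiectomized. Squares mark 3 genes above 0 on the left, and 7 genes below 0 and 1 above 0 on the right.

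Markers of the cell types an aorta holds moved between the same groups. With DHT against orchiectomy, calls were lower for 3 of 10 endothelial markers (summed 967 to 1530 CPM without and 730 to 958 CPM with DHT), 3 of 10 fibroblast markers (4900 to 7690 and 3380 to 5500 CPM) and 9 of 9 mesothelial markers (79.2 to 861 and 19.1 to 46.2 CPM), with *Upk3b* and *Msln* among the last. None of 10 smooth muscle markers was called, at 12600 to 24000 CPM without and 23300 to 28700 CPM with DHT summed, and all 10 had edgeR log2 fold changes above 0. Orchiectomized replicate 2 held the lowest of these sums. Without it 1 marker was called higher and *Myocd* lay below 0 (-0.106). Lower calls were also made for 4 of 6 neutrophil markers and 3 of 7 mast cell markers. Among 9 white fat, 8 Schwann cell and 7 sympathetic neuron markers 0 were called, 1 of 7 brown fat markers was lower and 3 of 7 skeletal muscle markers were higher. Without orchiectomized replicate 2 the counts were 7 of 9 for mesothelium, 2 of 6 for neutrophils, 2 of 7 for mast cells, 5 of 10 for fibroblasts and again 3 of 10 for endothelium, all lower, and 5 of 7 skeletal muscle markers were higher. After orchiectomy 6 of 7 T cell, 4 of 6 neutrophil and 2 of 9 mesothelial markers were called higher, 1 white fat, 1 brown fat and 2 skeletal muscle markers lower, and 0 in the other lists given here. These counts became, without orchiectomized replicate 2, 3 T cell, 4 neutrophil and 0 mesothelial markers higher and 1 white fat, 0 brown fat and 4 skeletal muscle markers lower. With DHT against control, 4 endothelial, 2 fibroblast, 5 mesothelial and 1 brown fat marker were called lower and 2 neutrophil markers higher. Without orchiectomized replicate 2, which enters this fit through the shared spread, 7 mesothelial markers were lower and 3 smooth muscle markers higher, with the other counts as before. No marker listed was at 0 throughout a group, and the part of these cell types in the members' results was not tested.

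**Figure D5:**
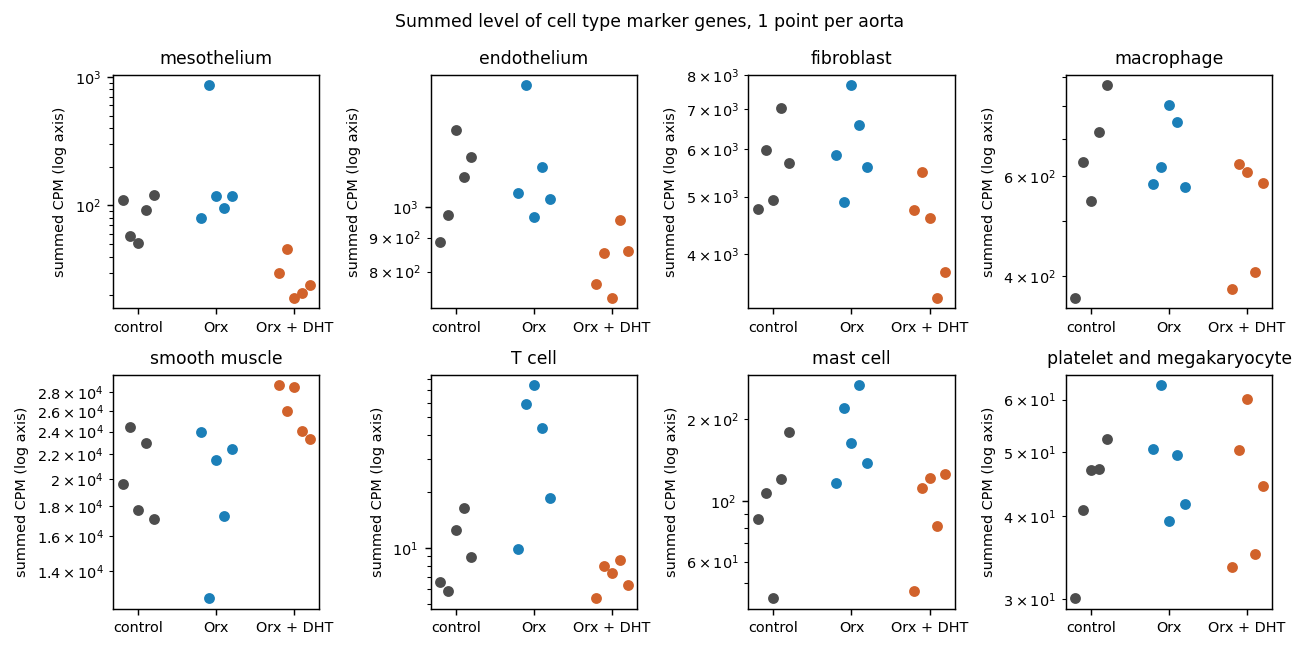
Summed CPM of the marker genes of 8 cell types in each of 15 aortas, 1 point per aorta, on log axes that differ between panels; Orx stands for orchiectomized. The DHT-treated aortas lie lowest for mesothelium (19.1 to 46.2 CPM), below all untreated orchiectomized aortas (79.2 to 861 CPM), and the smooth muscle sum of the DHT-treated aortas (23300 to 28700 CPM) reaches above both other groups.

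Across the 15 libraries the members varied together to different degrees in log2 CPM, given here as Pearson correlations without a test, since the points share libraries and treatments. *Ptgis* and *Tbxa2r* varied most closely together (0.88), followed by *Tbxas1* with *Ptger4* (0.853) and *Ptgs1* with *Tbxas1* (0.797). After the group means were removed these were 0.862, 0.662 and 0.465. The same step took *Ptgir* from 0.775 to 0.153 with *Ptgs1*, from 0.653 to 0.0691 with *Tbxas1* and from 0.765 to 0.334 with *Ptger4*. *Ptgis* and *Ptges* ran opposite to each other (-0.629). The tested genes outside the set most like *Ptgs1* were *Efemp1* (0.964), *Stxbp6* (0.961) and *Gpc3* (0.958), and those most like *Ptgir* were *Rftn1* (0.916), *Fndc1* (0.896) and *Col14a1* (0.888). For *Tbxas1* they were *Apbb1ip* (0.930), *Itgam* (0.929) and *Pik3cg* (0.924), and for *Ptger4* they were *Bmx* (0.931), *Kctd12* (0.923) and *Emp1* (0.922). The values for genes outside the set include the differences between the groups and were not computed with the group means removed.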

How the data were processed

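RNA-Seq was done on poly(A)-selected RNA of 15 mouse aortas, 1 per library and 5 per group. The deposited files hold raw counts of reads for each gene symbol, whole numbers that the authors had not normalized. The submitters' processing notes name STAR, Cufflinks, DESeq2 and mm10, without versions. The counting program, its annotation and its use of strand are not given in the sources used here. The 2 entries that are not genes held 6.26% to 14.4% (no feature) and 1.34% to 1.97% (ambiguous) of the counted reads and were left out.

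Counts were analyzed with edgeR 4.0.16 in R 4.3.3: filterByExpr (minimum count 10), TMM scaling and a quasi-likelihood test with 3 group means over all 15 libraries. Genes were called at an unadjusted P value under 0.01, and adjusted P values (Benjamini-Hochberg) covered all 14121 genes. The samples are separate mice by the labels. The method was tested on simulated data. log2 CPM used a prior count of 3 and ratios a pseudocount of 0.5. Positions and exon lengths came from GENCODE vM21.

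The members, gene lists and rules were chosen with earlier results of these data known. Named outside the members were pathway genes called in any comparison (at most 4 per list, or the 2 with the smallest P value), the leading markers of each cell type list that touches a result, and the 3 genes most correlated with each called member. *Prxl2b* and *Cyp2c44* were found under *Fam213b* and *Cyp2c23*, and *Muc16* was not found among the gene symbols counted. The result of a further marker list is not reported here. Alternatives were DESeq2 1.42.0, RLE size factors, other filters, only the groups compared, the replicate number as a block, a pseudocount of 0.1 and leaving out each library in turn. The fits of the pathway lists under DESeq2, the block and without each library were added after the data were seen.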

Additional observations from a re-analysis of the deposited data

Results flagged for a closer look

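*Ptgs2* in control replicate 2 stood apart from its group. It measured 40.4 CPM, against 10.2 to 15.2 CPM in the other 4 control mice. Its gap to the nearest value was 0.713 of the range on the log2 scale, just above the critical value of 0.71 for 5 samples. This was the only value past that limit among the 30 groups of member genes examined, and chance alone passes it in about 1 group of 20. Without that library the log2 fold change of *Ptgs2* after orchiectomy was 0.16 in place of -0.32, and neither passed the edgeR test.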

How the results depend on the processing

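The 4 calls with DHT against orchiectomy held under all 21 alternatives at the unadjusted threshold. Over all members and comparisons, 588 values kept their direction and side of the threshold, 17 lost a call, 9 gained one and 13 changed sign, none of them called. The changes of sign came from leaving out 1 library. After orchiectomy the log2 fold changes then ranged from -0.558 to 0.16 for *Ptgs2*, from -0.0804 to 0.183 for *Ptgis*, from -0.0598 to 0.47 for *Ptges* and from -0.151 to 0.094 for *Tbxa2r*. For DHT against orchiectomy they ranged from -0.219 to 0.116 for *Ptgs2* and from -0.00681 to 0.212 for *Ptger3*, and for DHT against control from -0.596 to 0.0401 for *Ptgs2* and from -0.0263 to 0.477 for *Ptgds*.

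Leaving out 1 library gave 0 to 1 members lower after orchiectomy, 4 to 5 lower and 0 to 1 higher with DHT against orchiectomy, and 1 (without control replicate 4) to 4 (without DHT replicate 2) lower for DHT against control. Genes called ranged from 120 (without orchiectomized replicate 2) to 396 higher and from 64 to 484 lower (lowest without control replicate 3, highest without control replicate 4) after orchiectomy, from 256 to 501 and from 746 to 1188 with DHT against orchiectomy, and from 126 to 321 and from 162 to 360 (both lowest without control replicate 5) for DHT against control.

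After orchiectomy the 294 higher genes became 498 with every gene of at least 1 count, 168 with 10 counts in every library and 140 with only the groups compared, and the 160 lower genes became 316 with DESeq2 and 254 with every gene of at least 1 count. DESeq2 gave 645 higher genes in place of 347 for DHT against orchiectomy and 326 in place of 214 for DHT against control, where the fit of only these groups gave 341. The cause of these shifts was not tested.

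The replicate numbers were not treated as pairs in the main fit. Of 15 pairs of same-numbered libraries, 4 had deviations correlated above 0.1 (range -0.47 to 0.46), and 3 libraries correlated best with their own number. Whether same-numbered libraries shared a batch or order was not tested. With the replicate number as a block, 180 genes were higher and 105 lower after orchiectomy and 218 were higher with DHT against orchiectomy. The members lower became 5, with *Ptges* (-0.80), and for DHT against control 2, without *Ptger4*. The pathway lists then gave 1 higher and 2 lower for DHT against control.

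In the pathway lists, an alternative set after the data were seen, DESeq2 called 2 lower after orchiectomy, 2 higher with DHT against orchiectomy, and 1 higher and 2 lower for DHT against control. Leaving out 1 library gave 0 (without control replicate 5) to 5 higher and 0 to 2 lower after orchiectomy, 1 to 2 higher and 3 (without orchiectomized replicate 2) to 10 lower with DHT against orchiectomy, and 0 to 2 higher and 0 to 3 lower for DHT against control.

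Leaving out 1 library moved the log2 ratio of *Ptgir* to *Tbxa2r* from -1.33 to -1.01 for DHT against orchiectomy and from -0.976 to -0.726 against control, and that of *Ptgis* to *Tbxas1* from 1.11 to 1.48 and from 0.688 to 1.08. The depth limits *Ptgds* and *Tbxas1*, with 6 to 42 and 16 to 98 counts.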
